A study of Mus musculus with 8 samples.

Results

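The 10 genes described here encode core and naive pluripotency factors: Pou5f1, Sox2, Nanog, Klf4, Klf2, Esrrb, Tfcp2l1, Prdm14, Tbx3 and Zfp42. They were matched by symbol among 21887 protein-coding genes of RefSeq's GRCm38.p6 annotation, whose coordinates are those of mm10. Every open-chromatin region that touched a gene body or the 50 kb on each side was collected. This gave 65 of 48730 regions in the Ubc9-depleted list, 83 of 46847 in the Ubc9-control list, 88 of 58039 in the H1 triple-KO list and 87 of 55489 in the H1 WT list.

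The regions come from ATAC-seq, which reads accessible DNA through insertions of a transposase, in mouse embryonic stem cells. Ubc9-depleted cells were of the v6.5 line, carried a TET-OFF system for Ubc9, which attaches the small protein SUMO to its targets, and had doxycycline (DOX) for 72 hours. Ubc9-control cells were of the same line. The labels state the drug for the depletion alone, so drug and depletion cannot be told apart. H1 triple-KO cells (H1.2-/-H1.3-/-H1.4-/-) lacked these linker histones, proteins that bind between nucleosomes and compact chromatin. Both they and the H1 WT cells came from an earlier study, and whether a line is 1 clone is not stated. All cells had spent 4 passages in 2i/LIF, the medium with inhibitors of MEK and GSK3 and the cytokine LIF that holds stem cells in the naive state. Each of the 4 groups has 2 replicates, which the submitters combined into 1 list, so there is no spread between replicates and no test below. A region is called shared when it overlapped a region of the other list of its pair by at least 1 bp, and unshared otherwise. Scores are the submitters' own values for each region and are used to rank regions within a list. The read depth is unknown.

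Pou5f1 (Oct4) and Sox2 bind DNA together and, with Nanog, form the core of the network that keeps stem cells undifferentiated. Klf4, Klf2, Esrrb, Tfcp2l1, Tbx3 and Prdm14 belong to the naive circuit that LIF and the inhibitors sustain, and Zfp42 (Rex1) is a common marker of that state. In stem cells these factors bind clusters of enhancers beside their own and each other's genes, and such enhancers appear in ATAC-seq as regions away from gene starts.

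The sequences of 5 promoters are shown, those that held a match to a motif named below. Promoters of Sox2, Klf4 and Klf2 held no match and are not printed, and all 4 lists had a region on each of them. Of the 5, all 4 lists had a region on those of Nanog, Tfcp2l1 and Zfp42. No list had one on those of Pou5f1 and Esrrb. Each runs from 250 bases before to 50 bases after the start, 5′ to 3′ on the gene's own strand, from RefSeq's GRCm38.p6 sequences. Capitals mark matches to the motifs named after them.
Pou5f1, chr17:35505782-35506081, plus strand: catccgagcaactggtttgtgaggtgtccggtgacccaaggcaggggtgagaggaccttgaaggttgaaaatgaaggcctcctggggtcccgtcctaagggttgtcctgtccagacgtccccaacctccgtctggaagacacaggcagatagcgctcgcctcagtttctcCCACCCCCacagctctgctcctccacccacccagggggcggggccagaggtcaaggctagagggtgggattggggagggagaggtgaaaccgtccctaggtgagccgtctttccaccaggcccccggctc
Esrrb, chr12:86360867-86361166, plus strand: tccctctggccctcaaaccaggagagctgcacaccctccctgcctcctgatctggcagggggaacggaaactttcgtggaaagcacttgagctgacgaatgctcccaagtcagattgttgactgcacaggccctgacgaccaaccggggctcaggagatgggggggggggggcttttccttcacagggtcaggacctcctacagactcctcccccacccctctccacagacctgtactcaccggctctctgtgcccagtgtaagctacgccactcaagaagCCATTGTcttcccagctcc
Nanog, chr6:122707239-122707538, plus strand: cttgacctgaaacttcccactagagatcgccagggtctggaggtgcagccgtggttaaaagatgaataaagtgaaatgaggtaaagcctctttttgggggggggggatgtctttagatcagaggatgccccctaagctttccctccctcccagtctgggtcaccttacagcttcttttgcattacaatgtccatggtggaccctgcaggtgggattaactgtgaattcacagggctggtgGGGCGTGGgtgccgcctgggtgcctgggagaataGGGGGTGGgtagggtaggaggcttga
Tfcp2l1, chr1:118627695-118627994, plus strand: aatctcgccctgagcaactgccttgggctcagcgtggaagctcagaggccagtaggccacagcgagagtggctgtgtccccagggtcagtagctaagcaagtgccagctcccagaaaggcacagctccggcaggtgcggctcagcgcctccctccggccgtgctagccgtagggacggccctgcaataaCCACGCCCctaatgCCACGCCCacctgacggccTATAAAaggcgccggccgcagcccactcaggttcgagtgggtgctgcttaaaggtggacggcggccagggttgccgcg
Zfp42, chr8:43306960-43307259, minus strand: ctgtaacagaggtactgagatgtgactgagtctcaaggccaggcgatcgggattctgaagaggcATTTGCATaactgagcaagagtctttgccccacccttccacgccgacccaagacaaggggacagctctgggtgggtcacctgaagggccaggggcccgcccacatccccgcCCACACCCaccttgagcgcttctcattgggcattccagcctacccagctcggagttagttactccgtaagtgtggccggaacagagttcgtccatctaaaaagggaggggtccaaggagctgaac

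Motifs of these factors and of STAT3, and the TATA box, were searched on both strands of 17492 such promoters, among them those of 8 of the 10 genes. Promoters of Prdm14 and Tbx3 were not used. The octamer ATGCAAAT, which POU factors bind, was in 1.72% of all promoters and, of the 8, in that of Zfp42, 186 bases before the start. The SOX motif ACAATGG was in 2.89% of all promoters and, of the 8, in that of Esrrb, 31 bases after the start. The KLF motif GGGNGTGG was in 19.3% of all promoters and in 4 of the 8. Pou5f1 and Zfp42 held 1 match each, 80 and 75 bases before the start, while Nanog held 2 (10 bases before and 24 after) and Tfcp2l1 held 2 (61 and 47 bases before). The TATA box TATAAA was in 13.3% of all promoters and, of the 8, in that of Tfcp2l1, 28 bases before the start.

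Letters of the other motifs were not in the 8 windows. They were AACAATG (SOX, in 3.42% of all promoters), TCAAGGTCA (ESRRB, 0.332%), TTCCNGGAA (STAT3, 1.17%), GGTCTCTAA (PRDM14, 0.257%), AGGTGTGA (T-box, 1.17%) and AAGATGGC (REX1/YY1, 3.21%). The SOX motifs can overlap each other. Only exact letters were matched, with N for any base, so sites with other letters were not counted. In the Nanog promoter, ttttgcat and tacaatg differ only in their first base from ATTTGCAT, the octamer on the other strand, and from AACAATG. A match describes letters only.

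The promoters without a region, of Pou5f1 and Esrrb, lay within the range of the other 6 in base composition. They had 62.7% and 60.0% G and C, while the others ran from 54.3% (Nanog) to 74.3% (Klf4) and the median over all promoters was 56.3%. Pou5f1 had 11 CpG dinucleotides and Esrrb 7, while Nanog had 4, Zfp42 11, Tfcp2l1 21, Sox2 27, Klf2 32 and Klf4 40. Over all promoters, the median was 22 CpG where a region of the Ubc9-control list overlapped the promoter and 4 where none did. The Nanog promoter, with 4, was nonetheless covered along all its 300 bases in every list.

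At the gene starts, the same 8 of the 10 genes had a region within 1000 bp in every list. Of all protein-coding genes, 52.4% had one in Ubc9-depleted, 51.0% in Ubc9-control, 49.0% in H1 triple-KO and 49.6% in H1 WT cells. With this setting, no member had a start region in 1 list of a pair only, though the Ubc9-depleted and Ubc9-control regions of Prdm14 did not overlap. Of all genes, 5.09% had one only in Ubc9-depleted and 3.70% only in Ubc9-control cells, and 3.99% only in H1 triple-KO and 4.58% only in H1 WT cells. Only a gene without a start region in the other list can count here, and few of the 10 lacked one. The tables used here give no strand for Prdm14 and Tbx3, so both of their ends were taken.

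Of the core factors, Sox2, the DNA-binding partner of Pou5f1, had a start region that scored 237.6 in Ubc9-depleted, 215.6 in Ubc9-control, 196.0 in H1 triple-KO and 151.3 in H1 WT cells. That of Nanog, a homeobox factor, scored 89.2 in Ubc9-depleted, 173.2 in Ubc9-control, 96.2 in H1 triple-KO and 153.1 in H1 WT cells. Nanog was thus under the median of the list in Ubc9-depleted (128.4) and H1 triple-KO cells (138.8), and above it in Ubc9-control (125.7) and H1 WT cells (132.1). Whether that exceeds the spread between replicates cannot be told from pooled lists.

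Of the naive factors, Klf4, a Krüppel-like factor downstream of LIF, had a start region that scored 652.2 in Ubc9-depleted, 221.0 in Ubc9-control, 291.6 in H1 triple-KO and 255.3 in H1 WT cells. That of its relative Klf2 scored 449.8 in Ubc9-depleted, 361.7 in Ubc9-control, 335.3 in H1 triple-KO and 332.5 in H1 WT cells. Both stood above the median of every list. Tfcp2l1, a CP2-family factor induced by LIF, had 221.0 in Ubc9-depleted, 153.4 in Ubc9-control, 168.7 in H1 triple-KO and 52.3 in H1 WT cells, close to the lowest score of the H1 WT list, 50.

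Prdm14, a repressor of FGF signalling genes, had 83.7 in Ubc9-depleted, 62.2 in Ubc9-control, 80.1 in H1 triple-KO and 77.4 in H1 WT cells, under the median of each list. Tbx3, a T-box factor, had 761.8 in Ubc9-depleted, 524.4 in Ubc9-control, 630.0 in H1 triple-KO and 368.1 in H1 WT cells. Zfp42, a zinc-finger protein, had 555.3 in Ubc9-depleted, 702.3 in Ubc9-control, 594.3 in H1 triple-KO and 817.0 in H1 WT cells. Tbx3 and Zfp42 held the highest 2 start scores of the 8 genes in each list but that of Ubc9-depleted cells, where Klf4 stood between them.

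**Figure D1:**
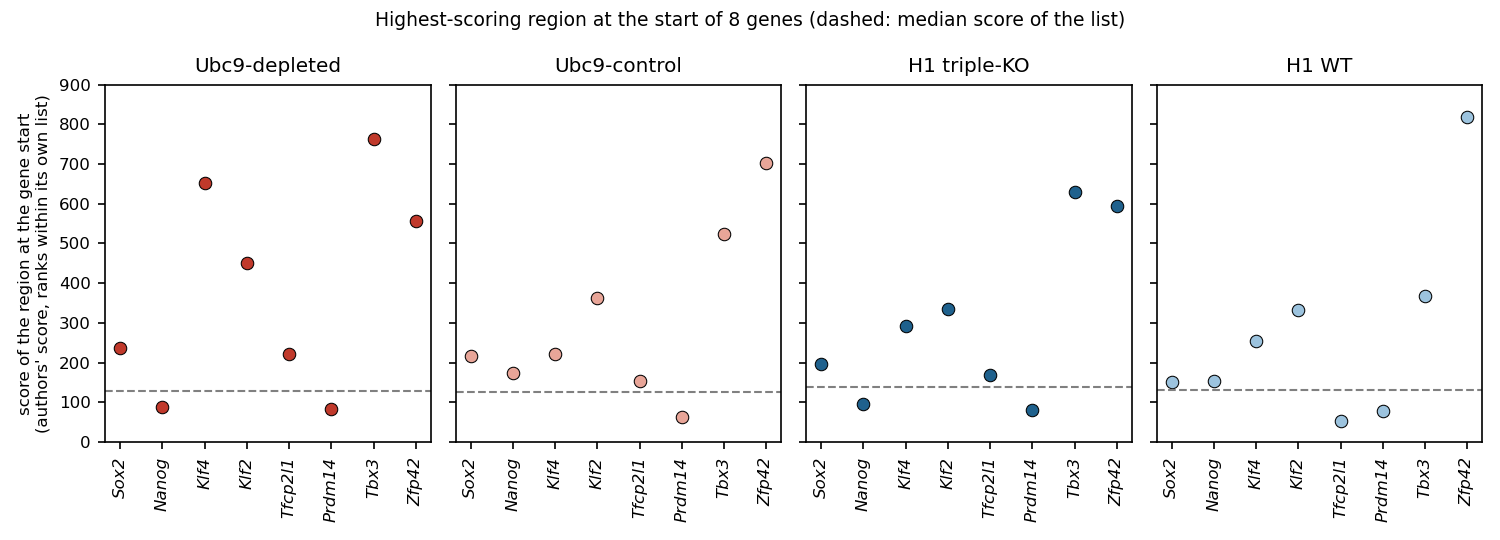
Score of the highest-scoring region within 1000 bp of the annotated start (y axis, the submitters' score) of 8 genes (x axis), 1 panel per list, with the median score of the list as a dashed line. Tbx3 and Zfp42 stand high and Prdm14 lies under the line in every panel, and Nanog lies under it in Ubc9-depleted (89.2) and H1 triple-KO cells (96.2).

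Pou5f1 and Esrrb, the genes without a start region, had regions elsewhere. Upstream of Pou5f1, a region in all 4 lists was centred 1.97 kb before the start in Ubc9-depleted cells (chr17:35503807-35504320). It scored 225.8 in Ubc9-depleted, 205.0 in Ubc9-control, 171.0 in H1 triple-KO and 203.7 in H1 WT cells. RefSeq gives Pou5f1 a further start 2775 bp downstream. A region near that start scored 65.4 in Ubc9-depleted, 86.4 in Ubc9-control and 94.6 in H1 WT cells, and H1 triple-KO cells had none there. Esrrb, an orphan nuclear receptor, has a further start 60527 bp into the gene, where H1 triple-KO cells alone had a region, of score 65.8.

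Around the 10 genes as a whole, regions were denser than around other genes. The median was 4.83 regions per 100 kb in Ubc9-depleted, 6.60 in Ubc9-control, 6.64 in H1 triple-KO and 6.93 in H1 WT cells. Over all protein-coding genes it was 2.80 in Ubc9-depleted, 2.81 in Ubc9-control, 3.43 in H1 triple-KO and 3.14 in H1 WT cells. The median score around the 10 genes was 99.4 in Ubc9-depleted, 135.0 in Ubc9-control, 140.7 in H1 triple-KO and 128.3 in H1 WT cells. Within 50 kb of any protein-coding gene it was 133.4 in Ubc9-depleted, 128.2 in Ubc9-control, 140.7 in H1 triple-KO and 133.6 in H1 WT cells. Around these genes the Ubc9-depleted list thus had a lower density than the Ubc9-control list. Its median score there lay under its own median near genes, while that of the Ubc9-control list lay above its own. The 10 kb just inside the edges of the windows held 12 regions in Ubc9-depleted, 12 in Ubc9-control, 12 in H1 triple-KO and 11 in H1 WT cells, and the 10 kb just outside held 9 in Ubc9-depleted, 12 in Ubc9-control, 6 in H1 triple-KO and 12 in H1 WT cells.

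In the Ubc9 pair, the control list held more unshared regions around these genes than the depleted list did, 26 against 10 in the depleted list. Of the 65 regions in the depleted list, 10 were unshared (15.4%, exact 95% binomial interval 7.63 to 26.5). In the whole depleted list 45.6% were unshared, and 38.6% of those within 50 kb of any protein-coding gene. Of the 83 in the control list, 26 were unshared (31.3%, 21.6 to 42.4), against 43.3% of the whole control list and 41.4% near genes. The depleted list was thus below its background by more than the counting interval, and the interval of the control list held its value near genes. The median unshared share per gene was 10.8% for the 10 genes in the depleted list and 27.9% in the control list, against 33.3% for all genes in each. Intervals cover counting error only, and the regions of a gene are not independent of each other.

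Unshared regions were mostly of low score. Those of the depleted list scored 55.1 to 172.8 with a median of 71.3, and those of the control list 53.9 to 206.3 with a median of 93.2. Shared regions had a median of 111.7 in the depleted and 161.4 in the control list. Of regions that scored at least 100, 1 of 32 in the depleted list was unshared (3.13%, against 37.5% of the whole list and 29.6% near genes). In the control list it was 11 of 53 (20.8%, interval 10.8 to 34.1, against 29.5% of the whole list and 27.2% near genes). With the same minimum set on both lists, 4 of 32 were unshared in the depleted list (12.5%, interval 3.51 to 29.0, against 37.4% near genes) and 24 of 53 in the control list (45.3%, 31.6 to 59.6, against 39.9% near genes). The depleted list thus stayed below its value near genes under both readings, while the control list lay below it in one and above it in the other, within its interval in each. By place, 7 of the 10 in the depleted list lay outside genes and 1 inside a member, and in the control list 11 of the 26 lay outside genes and 9 inside a member.

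**Figure D2:**
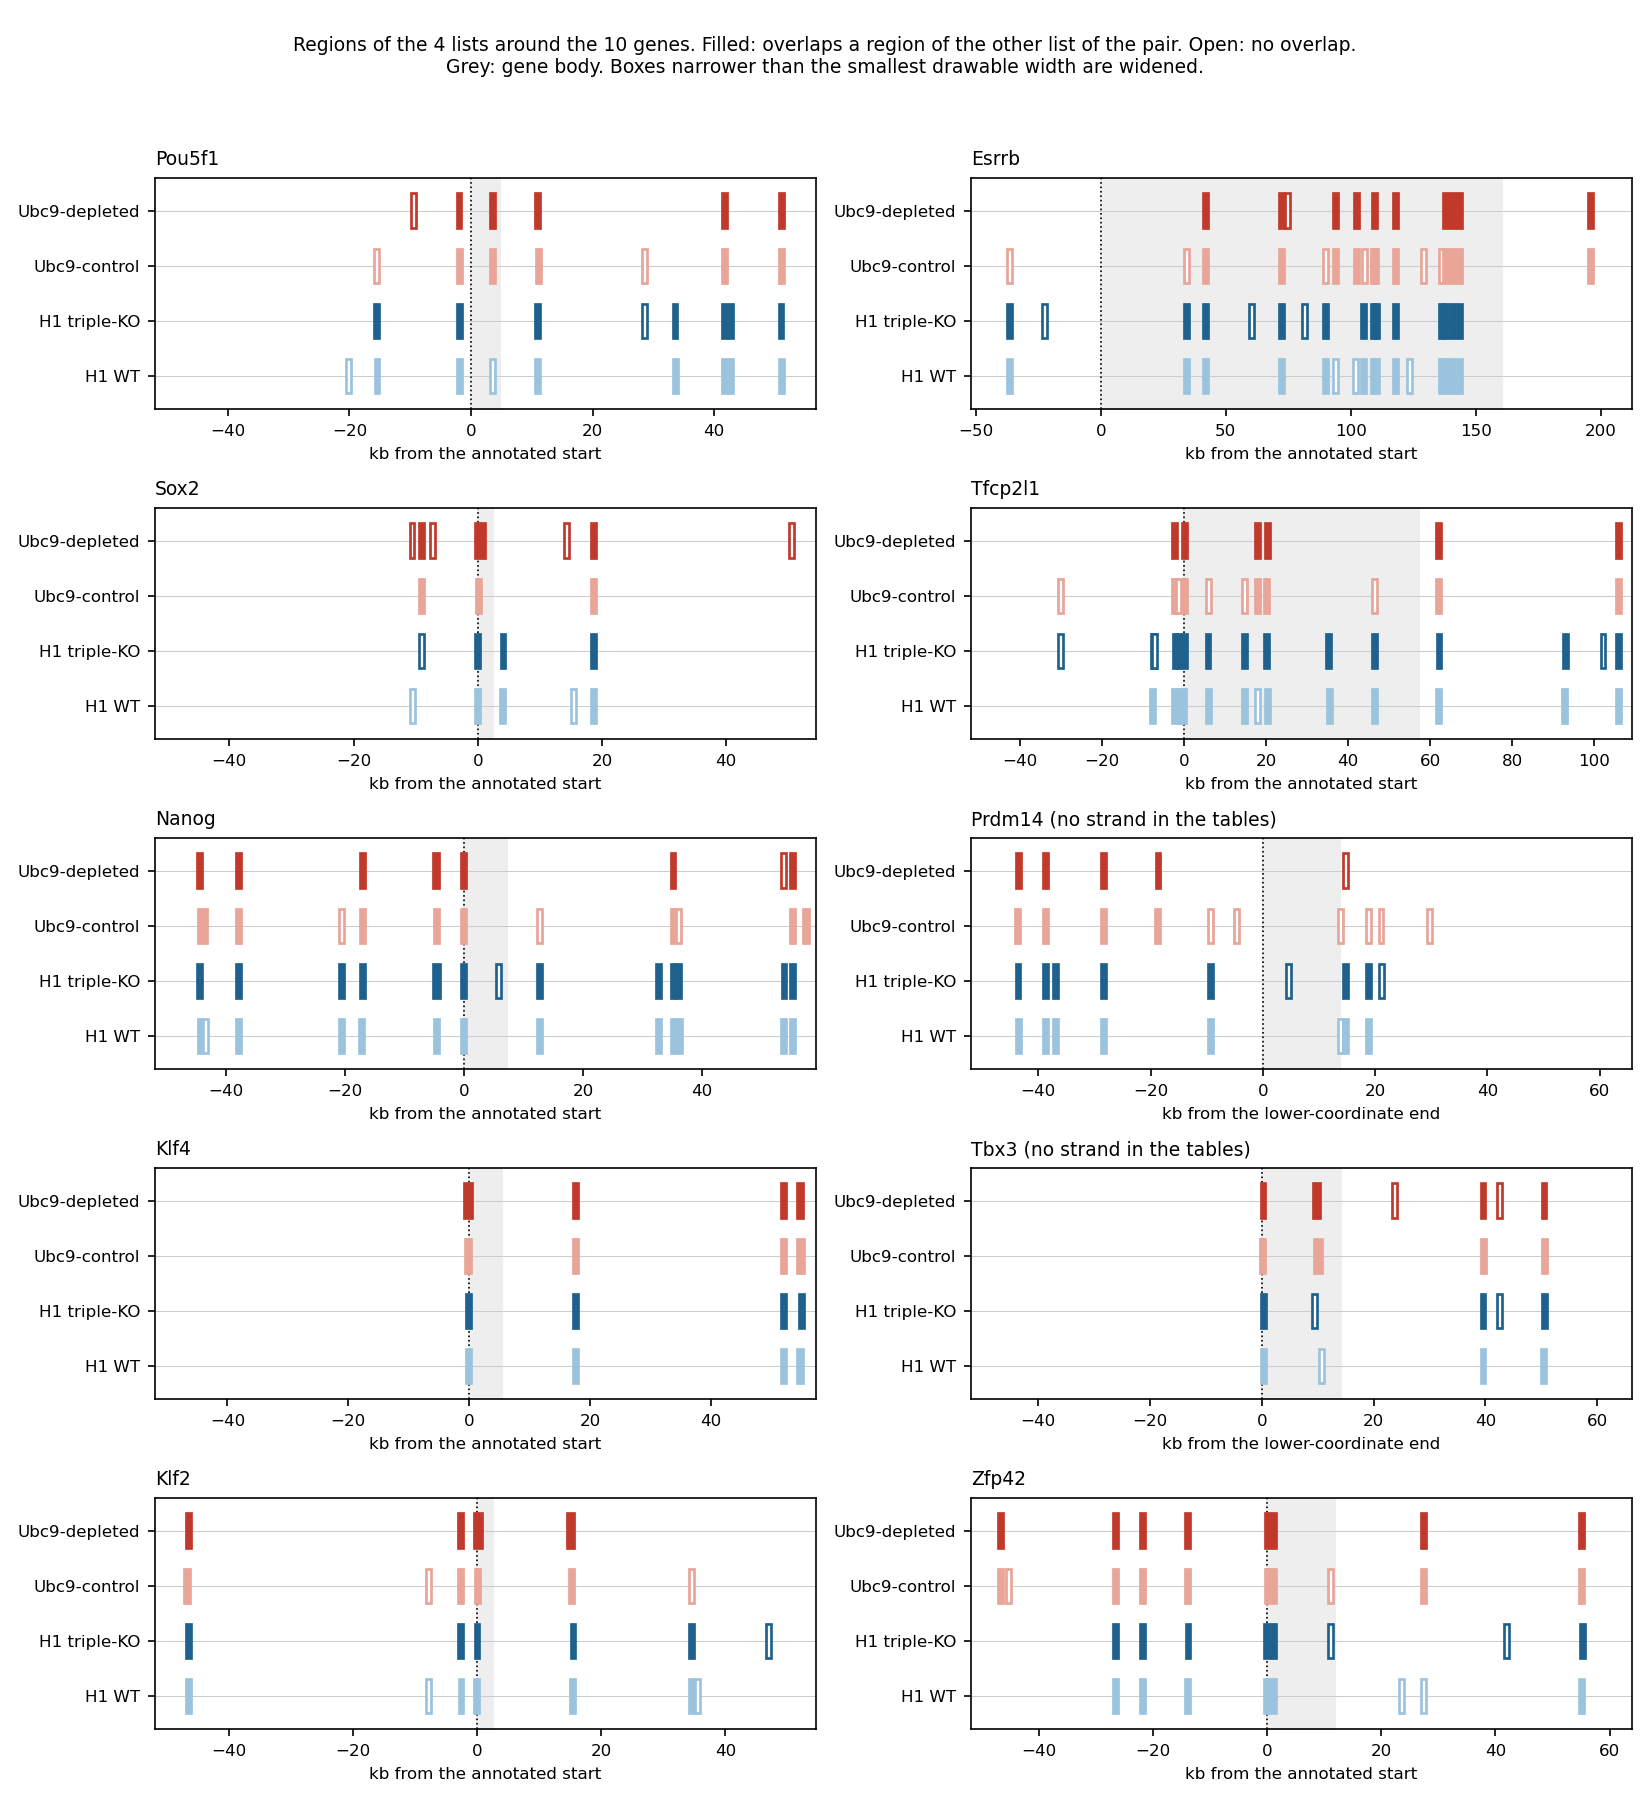
Regions around each of the 10 genes (x axis, kb from the annotated start along the gene, or from the lower-coordinate end for Prdm14 and Tbx3), 1 row per list, filled where a region overlaps one of the other list of its pair and open where it does not. Open boxes of the Ubc9-control row gather at Esrrb (6), Tfcp2l1 (5) and Prdm14 (6), those of the Ubc9-depleted row at Sox2 (4), and Klf4 has filled boxes only.

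The genes differed in how their unshared regions fell. At Esrrb 1 of 11 regions was unshared in the depleted list and 6 of 17 in the control list, at Tfcp2l1 0 of 6 and 5 of 11, and at Prdm14 1 of 5 and 6 of 10. Those 3 genes held 17 of the 26 unshared control regions. Sox2 and Tbx3 went the other way, with 4 of 7 and 2 of 6 in the depleted list and 0 of 3 and 0 of 4 in the control list. All unshared depleted regions of Sox2 and Tbx3 scored under 100. Unshared control regions that scored at least 100 were 4 at Esrrb, 3 at Tfcp2l1 and 1 at Prdm14. Klf4 had 4 regions in each list, all shared. Nanog had 1 of 8 in the depleted and 3 of 11 in the control list, Pou5f1 1 of 6 and 2 of 7, Klf2 0 of 4 and 2 of 6, and Zfp42 0 of 8 and 2 of 10.

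At Pou5f1, chr17:35496259-35496877 had the highest score of the unshared depleted regions around the 10 genes, 172.8. It lay 9.46 kb before the start, and no other list had a region there. The control list had unshared regions at chr17:35490345-35490690 (85.6), which met a region in both H1 lists, and at chr17:35534412-35534636 (68.6), inside the neighbouring gene Psors1c2, which met one in H1 triple-KO cells.

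At Sox2 the 4 unshared depleted regions all lay outside genes. The highest were chr3:34642493-34642889 (83.2), chr3:34664174-34664494 (62.1) and chr3:34700391-34700660 (60.4), and no other list had a region at these places. The highest-scoring region away from the start was shared, 18.6 kb downstream of it, with scores of 226.3 in Ubc9-depleted and 327.4 in Ubc9-control cells, and of 279.0 in H1 triple-KO and 335.8 in H1 WT cells.

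Nanog had a shared region centred 4.70 kb before its start in Ubc9-depleted cells (chr6:122702322-122703262), with scores of 567.2 in Ubc9-depleted, 737.5 in Ubc9-control, 1148.0 in H1 triple-KO and 1008.4 in H1 WT cells. It stood among the top 3.92% of the Ubc9-depleted, 1.14% of the Ubc9-control, 0.165% of the H1 triple-KO and 0.380% of the H1 WT list. In the H1 lists it was the highest-scoring region around any of the 10 genes. In the Ubc9-control list Zfp42 had a higher one (748.9), and in the Ubc9-depleted list Zfp42 (797.3), Tbx3 (761.8) and Klf4 (652.2) did. Unshared in the depleted list was chr6:122761061-122761392 (64.9), inside the glucose transporter gene Slc2a3. Unshared in the control list were chr6:122720054-122720271 (108.0), chr6:122743362-122743712 (100.8) and chr6:122686735-122687093 (81.6). All 4 of these places had a region in both H1 lists.

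Among the KLF genes, Klf4 had its highest distal region 17.5 kb downstream of its start, with 442.5 in Ubc9-depleted, 303.5 in Ubc9-control, 536.3 in H1 triple-KO and 451.2 in H1 WT cells. Klf2 had a shared region 15.0 kb downstream of its start in Ubc9-depleted cells, with 216.1 in Ubc9-depleted and 188.0 in Ubc9-control cells. Its unshared control regions were chr8:72310965-72311493 (95.5), upstream of the gene, and chr8:72353416-72353770 (56.4), inside its neighbour Eps15l1. The place inside Eps15l1 held the highest distal region of Klf2 in H1 triple-KO (302.4) and H1 WT cells (389.6).

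Esrrb, the longest of the 10 genes at 160.5 kb, had most of its regions in its own body. The highest-scoring unshared control regions were chr12:86450764-86451284 (206.3), chr12:86395384-86395641 (149.7) and chr12:86490072-86490398 (116.6), all inside the gene. The first of them lay 89.9 kb from the start and had a region in H1 triple-KO (163.3) and H1 WT cells (83.0), and the last had none in any other list. Unshared in the depleted list was chr12:86435690-86435978 (95.7), also inside the gene and in no other list. The highest-scoring region of Esrrb in the Ubc9 lists was shared, 140.8 kb from the start, with 493.9 in Ubc9-depleted and 295.4 in Ubc9-control cells.

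Tfcp2l1 had unshared control regions at chr1:118642356-118643005 (160.3) and chr1:118633603-118633994 (138.3), both inside the gene, and at chr1:118626509-118626821 (104.8), 1.26 kb before its first base. H1 triple-KO and H1 WT cells had regions at all 3 places. The highest-scoring region in the body of Tfcp2l1 was shared, 20.3 kb from the start in Ubc9-depleted cells, with 300.3 in Ubc9-depleted and 624.6 in Ubc9-control cells. It was among the top 16.1% of the depleted and the top 2.06% of the control list.

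Prdm14 had unshared control regions at chr1:13132079-13132536 (188.6), chr1:13142954-13143189 (98.5) and chr1:13103993-13104378 (90.7). The first and the last met a region in both H1 lists, and the other, inside the neighbouring coactivator gene Ncoa2, in neither. At the higher-coordinate end of Prdm14 each Ubc9 list had a region and they did not overlap, chr1:13128022-13128378 in the depleted (83.7) and chr1:13127049-13127397 in the control list (62.2). H1 WT cells had a region at both places (77.4 and 77.2) and H1 triple-KO cells at the place of the depleted region (80.1). The highest-scoring region of the window was shared in both pairs, 28.3 kb outside the lower-coordinate end, with 414.0 in Ubc9-depleted and 577.3 in Ubc9-control cells, and with 338.9 in H1 triple-KO and 624.6 in H1 WT cells.

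Tbx3 had unshared depleted regions at chr5:119712796-119713237 (72.5) and chr5:119694180-119694437 (70.2). At the first of these places H1 triple-KO cells had a region as well (93.1) and H1 WT cells had none. Its highest distal region was 9.77 kb from the lower-coordinate end in Ubc9-depleted (264.1) and 39.6 kb from it in Ubc9-control (216.9), H1 triple-KO (293.9) and H1 WT cells (253.5). Zfp42 had its highest distal region 13.9 kb before its start, with 797.3 in Ubc9-depleted, 748.9 in Ubc9-control and 274.8 in H1 triple-KO cells. H1 WT cells had a region there too, of 104.1, and their highest was 55.1 kb downstream of the start, at 190.1. The unshared control regions of Zfp42 were chr8:43352237-43352621 (121.8), in no other list, and chr8:43295702-43296076 (62.8), where H1 triple-KO cells had one as well.

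**Figure D3:**
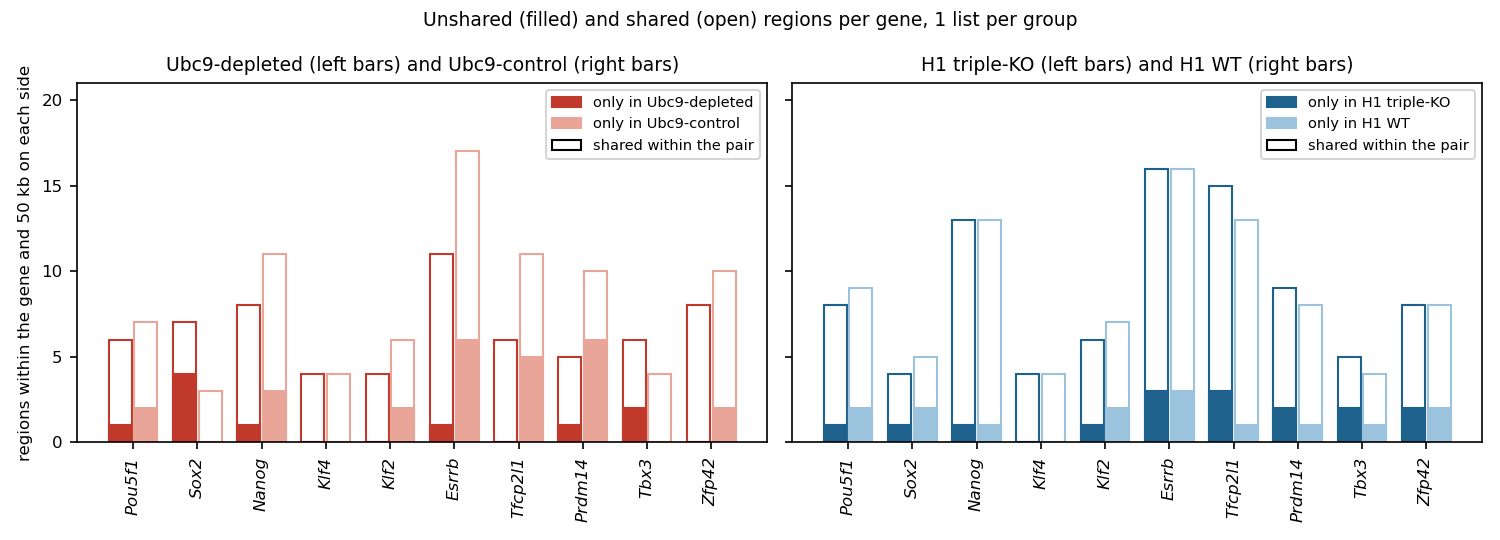
Number of regions within each gene and 50 kb on each side (y axis) for the 10 genes (x axis), 1 bar per list, with unshared regions filled and shared ones open. Prdm14, Esrrb and Tfcp2l1 have the tallest filled Ubc9-control bars (6, 6 and 5), Sox2 the tallest filled Ubc9-depleted bar (4), and no filled bar of the H1 pair is above 3.

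In the H1 pair, unshared regions around the 10 genes were as many in triple-KO as in WT cells to within 1. Of the 88 regions in the H1 triple-KO list, 16 were unshared (18.2%, interval 10.8 to 27.8), against 31.4% of the whole list and 30.4% near genes. Of the 87 in the H1 WT list, 15 were unshared (17.2%, 9.98 to 26.8), against 28.8% of the whole list and 27.1% near genes. The value near genes lay above the interval in both lists, in H1 WT cells narrowly. Of regions that scored at least 100, 5 of 62 were unshared in H1 triple-KO (8.06%, interval 2.67 to 17.8, against 19.6% of the whole list and 18.9% near genes). In H1 WT cells it was 6 of 55 (10.9%, 4.11 to 22.2, against 17.4% and 15.9%, which lie within the interval). With the same minimum set on both lists, 20 of 62 were unshared in H1 triple-KO (32.3%, 20.9 to 45.3, against 32.0% near genes) and 13 of 55 in H1 WT cells (23.6%, 13.2 to 37.0, against 25.3%). The median unshared share per gene was 19.4% for the 10 genes in H1 triple-KO, against 25.0% for all genes, and 20.5% in H1 WT cells, against 20% for all genes. The lower share of unshared regions around these genes thus did not hold in the H1 pair under every reading.

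Of the chromosomes that hold the 10 genes, some were uneven between the H1 lists, and 5 of the genes lie there. Unshared triple-KO regions stood to unshared WT regions as 3.19 to 1 on chromosome 3, which holds Sox2, and as 3.68 to 1 between 110 and 140 Mb of chromosome 1, which holds Tfcp2l1. The ratio was 0.309 from 80 Mb on in chromosome 6, which holds Nanog, and 0.386 on chromosome 8, which holds Klf2 and Zfp42. Chromosomes 4, 5, 12 and 17 and the rest of chromosome 1, which hold the other members, had ratios of 1.05 to 1.32. The 5 genes on the uneven stretches had 8 of 46 regions unshared in triple-KO and 8 of 46 in WT cells, and the other 5 had 8 of 42 in triple-KO and 7 of 41 in WT cells. In the Ubc9 pair, unshared depleted regions stood to unshared control regions as 1.02 to 1 on chromosome 3. The ratio was 0.814 on that stretch of chromosome 1, 0.742 on that of chromosome 6 and 0.870 on chromosome 8. Where the other members lie it was 0.979 to 1.21. The 5 genes on the uneven stretches had 5 of 33 regions unshared in depleted and 12 of 41 in control cells. The other 5 had 5 of 32 and 14 of 42. The part of these ratios in the counts of single genes was not tested.

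By gene, Esrrb had 3 of 16 regions unshared in each H1 list. They were chr12:86442303-86442650 (88.7), chr12:86338424-86338670 (74.4) and the one at the further start in triple-KO cells, and chr12:86463014-86463382 (201.4), chr12:86455010-86455337 (145.6) and chr12:86484406-86484652 (60.0) in WT cells. The WT regions of 201.4 and 145.6 met regions of both Ubc9 lists, so triple-KO cells alone had none there. Tfcp2l1 had 3 of 15 unshared in triple-KO cells, chr1:118597536-118597855 (151.6), inside its neighbour Clasp1, chr1:118729651-118730542 (111.4) and chr1:118620635-118620921 (90.9), and 1 of 13 in WT cells, chr1:118645676-118646074 (95.7).

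Pou5f1 had 1 of 8 unshared in triple-KO cells, chr17:35534407-35534615 (158.4), the highest-scoring unshared triple-KO region around the 10 genes. It had 2 of 9 in WT cells, chr17:35509382-35509724 (94.6), inside the gene, and chr17:35485790-35486048 (69.7). The highest distal region of Pou5f1 in triple-KO cells was inside the neighbouring gene Cdsn, 42.8 kb from the start, at 238.7, and in WT cells the region there scored 60.0. Sox2 had 1 of 4 in triple-KO cells, chr3:34640792-34641001 (115.1), and 2 of 5 in WT cells, chr3:34665304-34665513 (56.1) and chr3:34639322-34639521 (53.2). Nanog had 1 of 13 in each list, chr6:122713108-122713435 (79.6) inside the gene in triple-KO cells and chr6:122663834-122664213 (150.6) in WT cells.

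Klf2 had 1 of 6 unshared in triple-KO cells, chr8:72365884-72366162 (65.8), and 2 of 7 in WT cells, chr8:72310940-72311474 (210.9) and chr8:72354238-72354747 (101.7). The WT region of 210.9, 7.86 kb before the start, was the highest-scoring unshared WT region around the 10 genes, and the only other list with a region there was that of Ubc9-control cells. Klf4 again had 4 regions in each list, all shared. Prdm14 had 2 of 9 in triple-KO cells, chr1:13117858-13118034 (89.1) and chr1:13134411-13134613 (59.4), and 1 of 8 in WT cells, at its higher-coordinate end.

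Tbx3 had 2 of 5 unshared in triple-KO cells, chr5:119679748-119680306 (140.6) and chr5:119712840-119713149 (93.1), and 1 of 4 in WT cells, chr5:119680994-119681393 (131.2). The regions of 140.6 and 131.2 lay next to each other inside the gene without overlapping, and a region of Ubc9-control cells (118.5) spanned part of both, so the merging below counts them as 1 site in all 4 lists. Zfp42 had 2 of 8 unshared in triple-KO cells, chr8:43264924-43265200 (87.2) and chr8:43295757-43295963 (61.2), and 2 of 8 in WT cells, chr8:43279591-43279776 (86.0) and chr8:43283302-43283574 (56.9). At the place of the WT region of 86.0 Ubc9-depleted cells had a region of 364.9 and Ubc9-control cells one of 94.2.

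Overlapping regions of the 4 lists were then merged, which gave 114 sites around the 10 genes. Of them, 47 were in all 4 lists (41.2%, interval 32.1 to 50.8), against 24.7% of the sites within 50 kb of any protein-coding gene. The sites in all 4 lists were 8 at Nanog, 7 at Esrrb, 6 at Zfp42, 5 at Tfcp2l1, 4 each at Pou5f1, Klf4, Klf2 and Tbx3, 3 at Prdm14 and 2 at Sox2. The Nanog site at chr6:122764422-122765577 crossed the edge of the window, and only its Ubc9-control region touched the window. Klf4 had no other site. Sites of the depleted list alone were 6 (5.26%, 1.96 to 11.1), against 15.9% near genes.

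Sites in every list but that of Ubc9-depleted cells were 16 (14.0%, interval 8.24 to 21.8), against 10.3% near genes, which lies within the interval. They were 5 at Esrrb, 4 at Tfcp2l1, 3 at Nanog, 2 at Prdm14 and 1 each at Pou5f1 and Klf2. Inside a member were 7 of the 16, against 29 of all 114 sites around the 10 genes. Sites in every list but that of H1 triple-KO cells were 5 (4.39%, 1.44 to 9.94), against 1.81% near genes, and lay at Esrrb (2), Pou5f1, Tfcp2l1 and Zfp42. Sites in every list but that of Ubc9-control cells were 2 (against 1.37% near genes), at Nanog and Prdm14, and in every list but that of H1 WT cells 1 (against 2.03%), at Sox2. Both perturbed lists alone shared 1 site, at Tbx3 (against 1.41%), and both control lists alone shared 2, at Klf2 and Prdm14 (against 3.76%).

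The remaining sites were 9 of H1 triple-KO cells alone (7.89%, against 12.5% near genes), 5 of H1 WT cells alone (4.39%, against 8.72%) and 4 of Ubc9-control cells alone (3.51%, against 5.18%). Both H1 lists alone shared 8 (7.02%, against 6.53%), of which 3 were at Tfcp2l1 and 2 at Pou5f1. Both Ubc9 lists alone shared 3, at Esrrb, Prdm14 and Zfp42 (2.63%, against 2.39%). Ubc9-control and H1 triple-KO cells alone shared 4 (3.51%, against 2.70%), and Ubc9-depleted and H1 WT cells alone shared 1, at Sox2 (0.877%, against 0.832%).

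Of the 26 unshared control regions of the Ubc9 pair, 22 had a region in at least 1 H1 list (84.6%, against 76.4% near genes), and 16 in both (61.5%, against 46.8%). Of the 10 unshared depleted regions 4 had one (40.0%, against 18.5%). Of the 16 unshared H1 triple-KO regions 7 met a region of a Ubc9 list (43.8%, against 37.8%), and of the 15 unshared H1 WT regions 10 did (66.7%, against 48.4%).

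**Figure D4:**
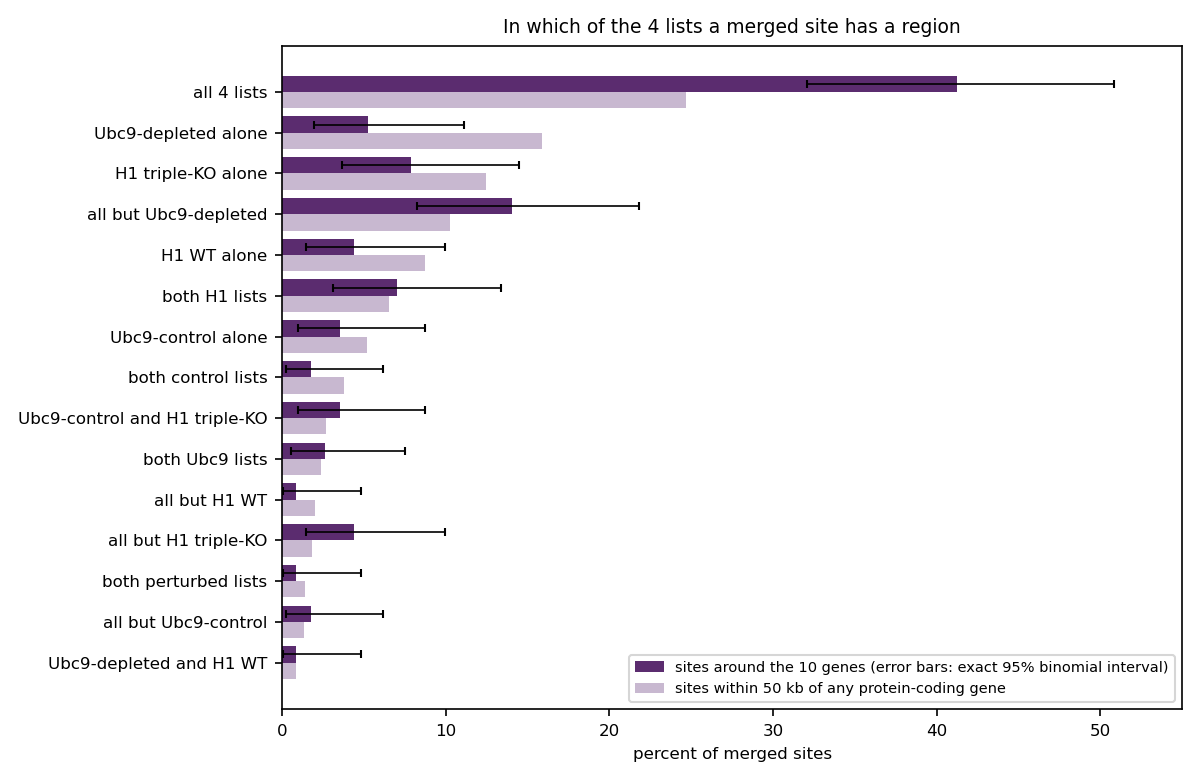
Percent of merged sites (x axis) by the lists in which they have a region (y axis), for the 114 sites around the 10 genes (dark, with exact 95% binomial intervals) and the sites within 50 kb of any protein-coding gene (light). Sites in all 4 lists make up 41.2% around the 10 genes and 24.7% near genes, and sites of Ubc9-depleted cells alone 5.26% and 15.9%.

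A list of 60 other genes of the stem cell state and of its LIF, FGF and WNT inputs, all matched by symbol, was read at gene starts. A start region was listed for 44 in Ubc9-depleted, 48 in Ubc9-control, 44 in H1 triple-KO and 46 in H1 WT cells. None of the 60 had one in Ubc9-depleted but not Ubc9-control cells, against 5.09% of all genes, and 4 of the 60 had one in Ubc9-control cells only, against 3.70%. Only genes without a start region in the other list can count here. In Ubc9-control cells 48 of the 60 had one, against 51.0% of all genes, so the shares have unlike bases, also in the H1 pair below. The 4 genes were the NODAL co-receptor gene Tdgf1 (109.8), whose region overlaps one of the depleted list beyond the 1000 bp, Dppa3 (105.7), known for guarding DNA methylation in the early embryo, the growth factor gene Gdf3 (73.3) and Utf1 (71.5), a chromatin-bound stem cell factor. Dppa3 and Gdf3 lie on chromosome 6 beside Nanog, with their regions at chr6:122626125-122626561 and chr6:122605519-122605853.

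In the H1 pair, 2 of the 60 had a start region in triple-KO cells only (against 3.99% of all genes), Pou3f1 (150.1), a POU factor of primed cells and the nervous system, and Wdr5 (69.5), a subunit of histone H3K4 methyltransferase complexes. In WT cells only there were 4 (against 4.58%), Fgf4 (167.2), the FGF ligand that stem cells secrete, Ctnnb1 (133.8), which encodes β-catenin, Utf1 (89.3) and Tcl1 (72.9), a coactivator of AKT.

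Markers of other cell types were read in the same way. Of all protein-coding genes, 49.0% (H1 triple-KO) to 52.4% (Ubc9-depleted) had a start region in a list. Those with one in 1 list of a pair only were 3.70% (Ubc9-control) to 5.09% (Ubc9-depleted). Of 8 fibroblast and feeder cell genes, 1 had a start region in each list, Col1a1 in Ubc9-depleted (89.6) and Ubc9-control cells (84.4) and Col1a2 in H1 triple-KO (90.5) and H1 WT cells (112.2), and Col3a1, Thy1, Pdgfrb, Lum, Dcn and Postn had none in any list. Of 5 primitive endoderm genes, 2 had one in Ubc9-depleted, 3 in Ubc9-control, 2 in H1 triple-KO and 1 in H1 WT cells. Gata6 had one in Ubc9-control (128.7), H1 triple-KO (117.6) and H1 WT cells (133.9), but none in Ubc9-depleted cells. Sox17 had one in Ubc9-depleted (103.5) and Ubc9-control cells (171.2). Foxa2 had one in Ubc9-depleted (66.2), Ubc9-control (69.2) and H1 triple-KO cells (104.6), and Gata4 and Pdgfra had none. Of 5 trophectoderm genes, 1 had one in Ubc9-depleted, 1 in Ubc9-control, 1 in H1 triple-KO and 2 in H1 WT cells. Eomes had one in Ubc9-depleted (85.5), Ubc9-control (60.7) and H1 WT cells (75.8). Krt8 had one in H1 triple-KO (314.0) and H1 WT cells (292.4), and Cdx2, Gata3 and Elf5 had none. Of 4 neural genes, 3 had one in Ubc9-depleted, 2 in Ubc9-control, 3 in H1 triple-KO and 2 in H1 WT cells, with Nes the one that differed in both pairs (113.7 in Ubc9-depleted and 97.5 in H1 triple-KO cells). Sox1 and Neurog2 had one in every list, and Pax6 had none. Gata6 differed in the Ubc9 pair alone, and Foxa2 and Eomes in the H1 pair alone. The part of other cell types in the results was not tested. A region open in few cells and one weakly open in all cannot be told apart in bulk samples.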

How the data were processed

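ATAC-seq regions of 8 samples in 4 groups (2 replicates each) were used as 1 list per group, in which the authors deposited a position and a score for each region. The submitters' processing notes name Bowtie2, Picard, MACS 1.4.2-1, CASAVA 1.8.2 and the build mm10. The settings, any shift of reads for the transposase and the way replicates were combined are not given in the sources used here. The lowest deposited score was 50.1 in Ubc9-depleted, 50.3 in Ubc9-control, 50.0 in H1 triple-KO and 50 in H1 WT cells. The H1 lists were made differently in form, with a median width of 259 bp in H1 triple-KO and 273 bp in H1 WT cells, against 431 bp in Ubc9-depleted and 367 bp in Ubc9-control cells, so regions were called shared within a pair only, and differences in form bear on every value set across the pairs, merged sites included. No read counts were used and the depth is unknown. A deeper library yields more regions, and peak lists do not show whether Ubc9 was depleted.

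Regions within a gene and 50 kb on each side were collected and overlaps of at least 1 bp counted (Python 3.11.15, pandas 2.3.3, SciPy 1.17.1 for Clopper-Pearson intervals). A start region overlaps the 1000 bp on either side of the annotated start. For merged sites, regions overlapping in any of the 4 lists were joined. Regions printed are the highest-scoring one at the start and away from gene starts, and up to 3 unshared regions per list and gene. Other places named were chosen after their values were seen. The overlap steps were tested on simulated regions. The 10 genes, the other gene lists and the motifs were chosen with earlier results of these data known. Alternatives were other window sizes, overlap rules and score minimums, equal list lengths and, chosen after seeing the data, H1 regions that repeat a peak name joined.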

Additional observations from a re-analysis of the deposited data

How the results depend on the processing

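No paired analysis was possible because the replicates of a group were combined in 1 list, and for the same reason leaving out each replicate was not run. Counts of unshared regions around the 10 genes moved with the window and with the score minimum. With 10 kb on each side they were 5 of 33 in Ubc9-depleted and 17 of 46 in Ubc9-control cells, and 9 of 47 in H1 triple-KO and 8 of 46 in H1 WT cells. With 100 kb they were 21 of 100 in Ubc9-depleted and 47 of 127 in Ubc9-control cells, and 24 of 134 in H1 triple-KO and 25 of 136 in H1 WT cells. When only regions scoring 100 or more were counted they were 1 of 32 in Ubc9-depleted and 11 of 53 in Ubc9-control cells, and 5 of 62 in H1 triple-KO and 6 of 55 in H1 WT cells. With that minimum set on both lists of the pair they were 4 of 32 in Ubc9-depleted and 24 of 53 in Ubc9-control cells, and 20 of 62 in H1 triple-KO and 13 of 55 in H1 WT cells. With equal numbers of top-scoring regions they were 8 of 59 in Ubc9-depleted and 30 of 83 in Ubc9-control cells, and 15 of 84 in H1 triple-KO and 18 of 87 in H1 WT cells. Without the 5 genes on uneven stretches they were 8 of 42 in H1 triple-KO and 7 of 41 in H1 WT cells. The cause of these changes was not tested. The Ubc9-control list was above the Ubc9-depleted list in each of these settings, in count and in share of the regions counted. The order in the H1 pair turned between settings. Within 50 kb of any protein-coding gene the control list also held more unshared regions, 15831 of 38258 against 14080 of 36454. In the whole lists it held fewer, 20276 against 22218. Shares near all genes are not given here for the other window sizes or for equal list lengths. An overlap of 50% of the shorter region, a gap of up to 200 bp and joined pieces changed no count. The number of genes with a start region stayed between 6 and 9 in every list over windows of 500 and 2500 bp and a score of at least 100. The lists of a pair then no longer always had the same number. Within 500 bp it was 7 in Ubc9-depleted and 8 in Ubc9-control cells, and 7 in H1 triple-KO and 8 in H1 WT cells. The gene lost there was Prdm14 in both lists. At a score of at least 100 it was 6 in Ubc9-depleted and 7 in Ubc9-control cells, and 6 in each H1 list. The 6 were not the same genes in the H1 lists. Nanog fell under this minimum in Ubc9-depleted (89.2) and H1 triple-KO cells (96.2), and Tfcp2l1 in H1 WT cells (52.3).

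The lists give no read depth and no replicate values, so no difference here was set against the spread between replicates.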
